A study of Mus musculus with 3 samples.

Results

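The class 3 semaphorins and their receptors were examined in single cells of the mouse aortic adventitia, the connective tissue that sheathes the vessel. The set held 9 genes, taken by symbol from the 32285 genes of the deposited feature lists: 6 ligands (Sema3a, Sema3b, Sema3c, Sema3d, Sema3e and Sema3f) and 3 receptors (Nrp1, Nrp2 and Plxnd1). All 9 were found. Sema3g, a further class 3 ligand, and other plexin receptors were outside this set and were followed in a separate list of pathway genes. Their levels were taken per library in 3 classes of cells, set by marker RNA. Fibroblasts had at least 1% of their UMIs (unique molecular identifiers, which count each captured RNA molecule once) in Col1a1, Col1a2, Dcn and Lum. Macrophages had at least 0.3% in the complement genes C1qa, C1qb and C1qc. Cells that met neither rule formed the rest, and the few that met both were kept apart.

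The libraries came from mice given angiotensin II with voluntary wheel running (AngII_VWR), mice given angiotensin II (AngII) and mice given saline (Vehicle). Angiotensin II, a peptide hormone that raises blood pressure, was thus common to AngII_VWR and AngII. The labels gave 3 mice per group and 9 in all. Strain, age, dose, duration and how the mice of a group were combined are not given in the sources used here. Each group was 1 library, so no difference between groups could be tested, and every interval below covers counting error alone.

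Class 3 semaphorins are secreted proteins, first known as cues that repel growing axons and later as regulators of vessel growth, lymphatic valves and immune cell movement. Most of them bind a neuropilin (Nrp1 or Nrp2) at the cell surface, and the neuropilin holds them to a plexin, whose inner domain acts on small GTPases and so loosens the cell's adhesion and actin skeleton. Sema3e is the exception, since it binds plexin D1 (Plxnd1) directly, and both neuropilins also serve as co-receptors for vascular endothelial growth factors.

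After filtering, 16125 cells remained in AngII_VWR, 9115 in AngII and 12324 in Vehicle. The fibroblast class held 10911, 6080 and 6546 of them, the macrophage class 3221, 1998 and 2537, and the rest 1915, 1023 and 3176. Median depth in the fibroblast class was 4590 UMIs per cell in AngII_VWR, 12993 in AngII and 9494.5 in Vehicle, so AngII_VWR was the shallowest library. In each library all 6 fibroblast markers (with Pdgfra and Col3a1) and all 6 macrophage markers (with Adgre1, Csf1r and Mrc1) were detected in their own class. Col1a1, Col1a2, Dcn, Lum and the C1q genes set the classes, so their detection there was fixed in advance. Only Pdgfra, Col3a1, Adgre1, Csf1r and Mrc1 were not part of the rules. The fibroblast cut falls within a range of values: 5.38% of AngII_VWR, 3.08% of AngII and 9.62% of Vehicle cells had between 0.8 and 1.2% of their UMIs in the 4 genes of the rule. The median C1q share in the fibroblast class was 0.0167% in AngII_VWR, 0.00496% in AngII and 0 in Vehicle, and the median share of the fibroblast genes in the macrophage class was 0.122, 0.0444 and 0.0393%. Between 44 and 80 cell barcodes were shared by any pair of libraries, at most 0.647% of a library.

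Most RNA of Sema3b, Sema3c and Sema3e lay in fibroblasts, and the neuropilins were divided between fibroblasts and macrophages. The fibroblast class carried 82.0% of the UMIs of Sema3c in AngII_VWR, 90.0% in AngII and 78.8% in Vehicle. It also held 91.2, 95.7 and 89.8% of those of Sema3b, and 79.4, 79.5 and 77.9% of those of Sema3e. Nrp2 was mostly macrophage RNA, with 74.4% of its UMIs in that class in AngII_VWR, 74.1% in AngII and 88.1% in Vehicle. Nrp1 was split between fibroblasts (70.3, 65.5 and 49.99%) and macrophages (23.9, 25.5 and 34.5%).

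**Figure D1:**
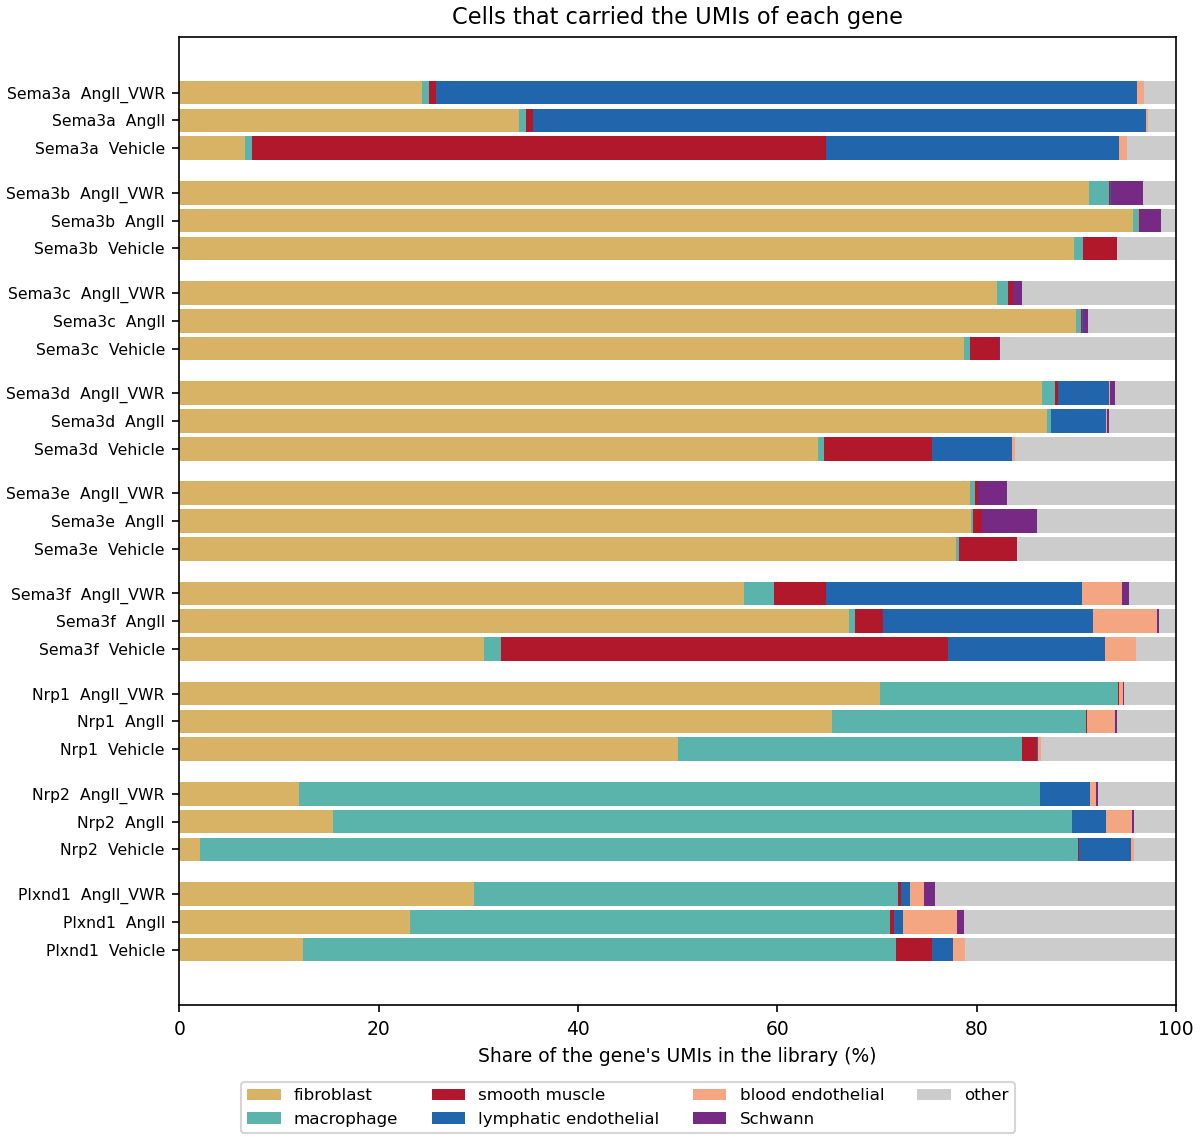
Share of each gene's UMIs (%, horizontal axis) found in each class or marker-gated set of cells, in 1 bar per gene and library. Fibroblasts carried 78.8% or more of the Sema3c UMIs in each library, macrophages 74.1% or more of the Nrp2 UMIs, and Sema3a lay mostly outside both classes.

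Sema3a and Sema3f were in part ligands of vessel cells. Lymphatic endothelial cells carried 70.3% of the Sema3a UMIs in AngII_VWR, 61.6% in AngII and 29.3% in Vehicle. Smooth muscle cells carried 0.730, 0.620 and 57.6%, from 41 such cells in AngII_VWR, 15 in AngII and 540 in Vehicle. Sema3f was spread over fibroblasts (56.6, 67.1 and 30.6%), lymphatic endothelium (25.7, 21.0 and 15.7%) and smooth muscle (5.19, 2.84 and 44.9%). The number of smooth muscle cells thus moved with the share of both genes held by that set. All further levels are given within classes or sets.

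The first comparison set AngII against Vehicle in fibroblasts. Sema3c and Sema3e were lower in AngII fibroblasts and Nrp2 was higher, each by more than 2-fold, and the other measured members differed by less. Levels are CPM, that is UMIs of the gene per 1000000 UMIs of all cells of the class, with exact Poisson 95% intervals. They are not divided by gene length, so they are compared between libraries and not between genes. Of the 9 members 8 were measured, with at least 5 CPM in either library and 10 UMIs over both, and Nrp2 passed 2-fold upwards (1 gene), and Sema3c and Sema3e passed it downwards (2 genes). Among all 10448 genes measured in this class 5.49% differed by as much, 3.47% higher and 2.02% lower.

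Sema3c, which binds both neuropilins and acts through plexin D1 in the septation of the cardiac outflow tract, had 149 CPM (146 to 152) in AngII_VWR fibroblasts, 151 CPM (148 to 154) in AngII fibroblasts and 443 CPM (438 to 448) in Vehicle fibroblasts. Vehicle was the high library and the other libraries lay close together. The ratio of AngII over Vehicle was 0.341 (0.334 to 0.348, exact conditional 95% interval), that is 2.94 times lower in AngII. Fewer cells with the RNA and fewer molecules per cell cannot be told apart in a summed level. The share of cells with a UMI is given beside it. With every cell thinned to 2000 UMIs, Sema3c was found in 16.6% of AngII_VWR fibroblasts (15.8 to 17.4%), 14.0% of AngII fibroblasts (13.1 to 14.9%) and 34.7% of Vehicle fibroblasts (33.4 to 35.95%), against 1.38, 0.204 and 1.95% of macrophages. Unthinned, the shares were 26.1, 34.1 and 59.3% of fibroblasts. Thinning left out 2142, 477 and 987 fibroblasts with fewer UMIs. The mean after thinning was 0.257, 0.248 and 0.671 UMIs of Sema3c per fibroblast. At such means fewer molecules per cell also lower the share of cells with a UMI. The share therefore does not tell fewer cells from fewer molecules per cell either.

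Sema3e, the ligand of plexin D1, had 18.7 CPM (17.6 to 19.8) in AngII_VWR fibroblasts, 14.2 CPM (13.4 to 14.99) in AngII fibroblasts and 36.8 CPM (35.4 to 38.2) in Vehicle fibroblasts. As with Sema3c, Vehicle stood highest, and AngII was 2.60 times lower (2.43 to 2.79). Few fibroblasts carried it: after thinning 1.92% of AngII_VWR, 1.41% of AngII and 3.20% of Vehicle fibroblasts, against at most 0.0847% of macrophages. This difference depended on where the fibroblast class was cut. With the rule at 2% of UMIs in the 4 marker genes the log2 ratio of AngII over Vehicle was 0.14, against -1.32 with the rule at 1%.

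Nrp2, a neuropilin that also binds the lymphatic growth factor VEGF-C, had 11.3 CPM (10.4 to 12.2) in AngII_VWR fibroblasts, 18.3 CPM (17.4 to 19.3) in AngII fibroblasts and 2.65 CPM (2.29 to 3.05) in Vehicle fibroblasts. AngII stood highest and Vehicle lowest, and AngII was 6.90-fold higher than Vehicle (5.94 to 8.05). After thinning, 1.86% of AngII_VWR, 2.55% of AngII and 0.558% of Vehicle fibroblasts had a UMI, and 5.06, 13.9 and 2.43% without thinning. Macrophages are rich in Nrp2, and macrophage RNA was present in the fibroblast class. The 6 macrophage markers summed to 273 CPM in AngII_VWR fibroblasts, 94.6 CPM in AngII fibroblasts and 111 CPM in Vehicle fibroblasts. Macrophage RNA at that level would bring 3.75 CPM of Nrp2 in AngII_VWR, 1.18 CPM in AngII cells and 1.46 CPM in Vehicle cells. The measured level was 3.00, 15.5 and 1.82 times those amounts, furthest above them in AngII and least in Vehicle. Among these markers are C1qa, C1qb and C1qc, whose share also decided which cells entered each class. The amounts thus depend on the macrophage rule, and the source of the Nrp2 RNA was not tested.

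**Figure D2:**
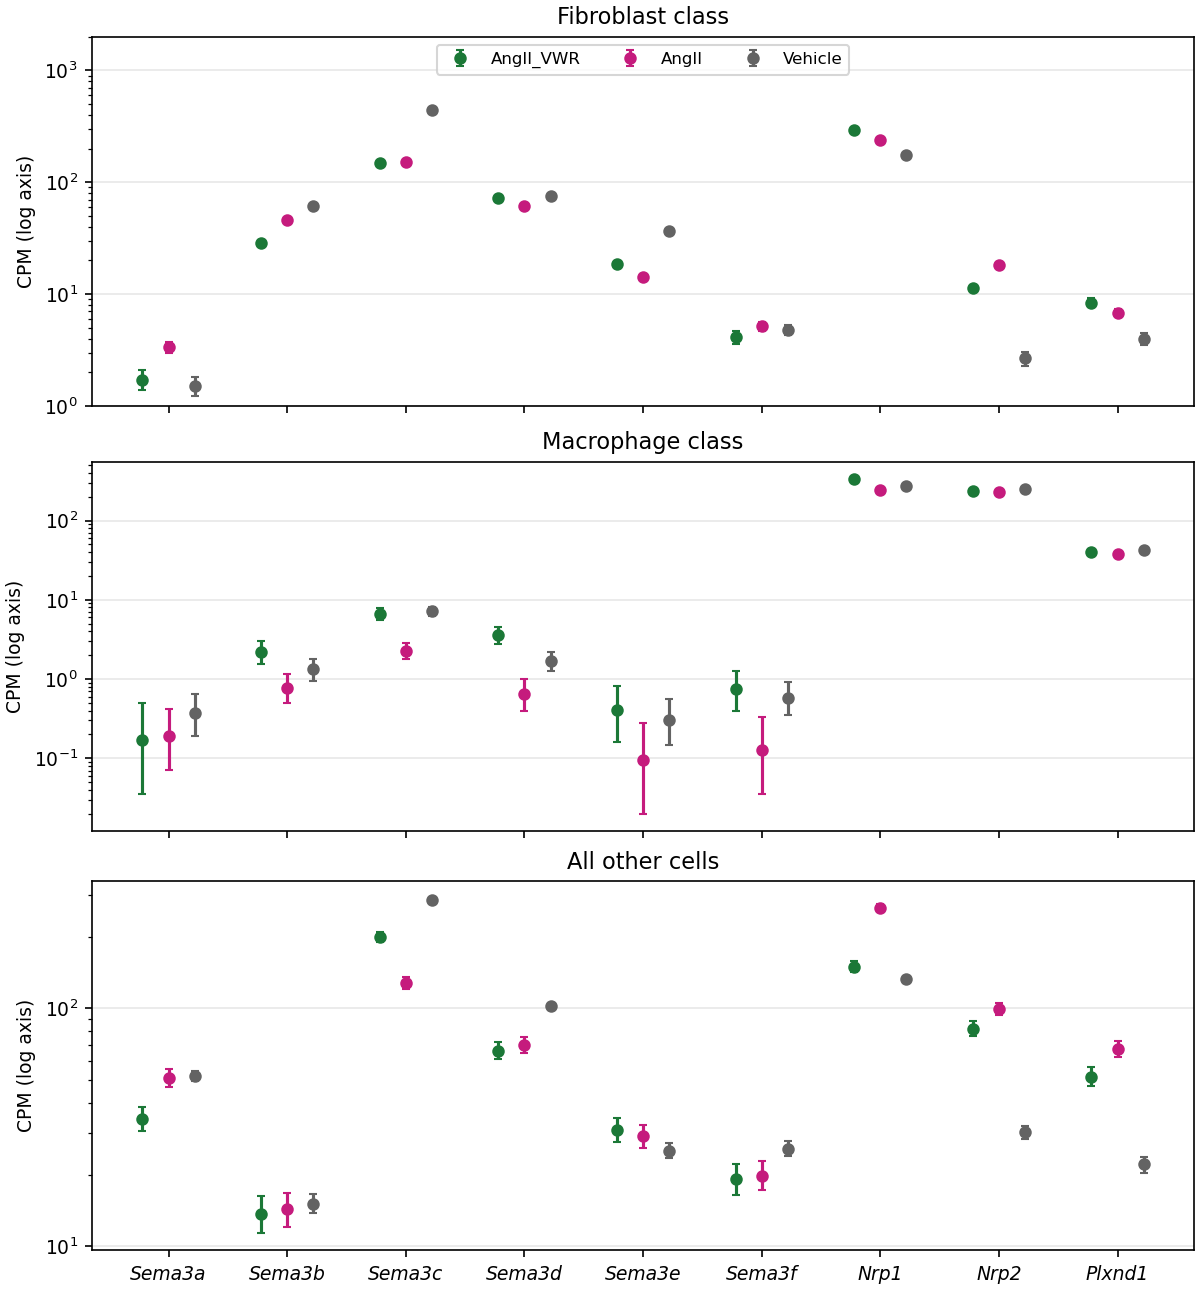
Levels of the 9 genes (CPM, log axis) in the fibroblast class, the macrophage class and all other cells, with 1 point per library and exact Poisson 95% intervals. In fibroblasts Sema3c was 149 CPM in AngII_VWR, 151 CPM in AngII cells and 443 CPM in Vehicle cells, and Nrp2 was 11.3, 18.3 and 2.65 CPM.

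The 3 members past 2-fold lie on 2 chromosomes of the mouse genome (build GRCm38, also called mm10; gene bounds from GENCODE M21). Sema3c spans chr5:17574281-17730268 and Sema3e chr5:14025276-14256689, both on the plus strand, and Nrp2 spans chr1:62703285-62818695 on the plus strand. Sema3d (chr5:12383385-12588948) and Sema3a (chr5:13125414-13602565) lie on the same chromosome, on the same side of Sema3e. These 4 neighbours differed in their values: Sema3d was 0.806 times the Vehicle level in AngII fibroblasts, and Sema3a had its highest level in lymphatic endothelium. Sema3b and Sema3f lie on chromosome 9 (107597674 to 107609229 and 107681500 to 107710475, minus strand), Nrp1 on chromosome 8 (128358604 to 128503363, plus strand) and Plxnd1 on chromosome 6 (115954811 to 115995005, minus strand).

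The promoters of Sema3c, Sema3e and Nrp2 are shown because these were the members past 2-fold in AngII fibroblasts. Each holds 250 bases before and 50 after the RefSeq start of the gene on GRCm38.p6, plus strand, in lower case. Capitals mark matches of GGGCGG, the letters of a GC box, or of its reverse complement CCGCCC. The windows are chr5:17574566-17574865 for Sema3c, chr5:14025026-14025325 for Sema3e and chr1:62703067-62703366 for Nrp2.
Sema3c: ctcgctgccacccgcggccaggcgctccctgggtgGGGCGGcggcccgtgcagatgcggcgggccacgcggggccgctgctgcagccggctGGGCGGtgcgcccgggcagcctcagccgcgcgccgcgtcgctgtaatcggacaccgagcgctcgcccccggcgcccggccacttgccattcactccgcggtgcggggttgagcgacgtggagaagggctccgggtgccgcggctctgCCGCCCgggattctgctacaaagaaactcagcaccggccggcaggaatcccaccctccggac
Sema3e: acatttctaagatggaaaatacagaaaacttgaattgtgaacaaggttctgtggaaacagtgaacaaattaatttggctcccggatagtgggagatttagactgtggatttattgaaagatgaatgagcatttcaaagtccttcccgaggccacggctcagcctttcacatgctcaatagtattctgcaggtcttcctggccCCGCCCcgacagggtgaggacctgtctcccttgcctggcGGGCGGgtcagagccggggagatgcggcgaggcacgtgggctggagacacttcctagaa
Nrp2: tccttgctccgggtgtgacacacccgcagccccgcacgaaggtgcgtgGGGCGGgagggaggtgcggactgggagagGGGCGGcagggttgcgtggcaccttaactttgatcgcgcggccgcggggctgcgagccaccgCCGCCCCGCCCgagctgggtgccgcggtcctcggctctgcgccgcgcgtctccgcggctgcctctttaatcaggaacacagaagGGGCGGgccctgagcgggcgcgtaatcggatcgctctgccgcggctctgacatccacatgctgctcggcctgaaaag

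Promoters were in the RefSeq table for 7 of the 9 genes, Sema3b and Sema3f being the others. Besides GGGCGG, the letters searched on both strands were TATAAA for a TATA box and CCAAT for the site bound by NF-Y. The last motif was TGANTCA, the AP-1 site. GGGCGG occurred 3 times in the Sema3c window, 2 times in that of Sema3e and 5 times in that of Nrp2, where 2 of the matches share bases. The letters of the other motifs were not in these windows. Of 32851 promoters of that length, 35.7% held a GC box, 13.6% a TATA box, 37.4% an NF-Y site and 7.81% an AP-1 site by these letters. GC content was 75.7% for Sema3c, 50.7% for Sema3e and 70.7% for Nrp2, against a median of 52.7%. CpG pairs numbered 42, 11 and 37, against a median of 7.

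The fibroblast class is mixed, and Sema3c and Sema3e followed one end of it. Pi16, Dpp4, Cd55, Anxa3 and Ackr3 are known as genes of progenitor fibroblasts. Fibroblasts of the 3 libraries together were divided into tertiles by the share of UMIs in these 5 genes. The high tertile held 24.4% of AngII_VWR, 26.7% of AngII and 54.3% of Vehicle fibroblasts, so Vehicle fibroblasts were on the whole richer in these markers. From the low over the middle to the high tertile, Sema3c was 31.0, 97.7 and 382 CPM in AngII_VWR, 23.0, 69.4 and 426 CPM in AngII cells, and 112, 149 and 602 CPM in Vehicle cells. Within each tertile AngII was below Vehicle, 4.84 times in the low, 2.15 times in the middle and 1.41 times in the high one. The log2 ratio with the tertiles weighted equally was -0.73, against -1.55 over the whole class. Sema3c was then under 2-fold lower, and so was Sema3e at -0.54 against -1.32, which left Nrp2 as the 1 member past 2-fold. Median depth differed between the Vehicle tertiles, at 4603 UMIs in the low and 12867 UMIs in the high one, and its part in these values was not tested.

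Sema3e followed the same tertiles, with 2.59, 19.2 and 41.1 CPM in AngII_VWR, 3.26, 11.6 and 32.4 CPM in AngII cells, and 7.04, 13.2 and 50.03 CPM in Vehicle cells. Both ligands were highest in the high tertile of each library. The receptors ran the other way. Nrp1 was 383, 271 and 186 CPM from low to high in AngII_VWR, 302, 221 and 175 CPM in AngII cells, and 368, 215 and 132 CPM in Vehicle cells. Plxnd1 was 13.9, 6.37 and 3.03 CPM in AngII_VWR, 11.1, 5.33 and 2.52 CPM in AngII cells, and 14.9, 4.27 and 2.23 CPM in Vehicle cells. The ligands Sema3c and Sema3e and the receptors Nrp1 and Plxnd1 thus lay at opposite ends of the same class in each of the 3 libraries.

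**Figure D3:**
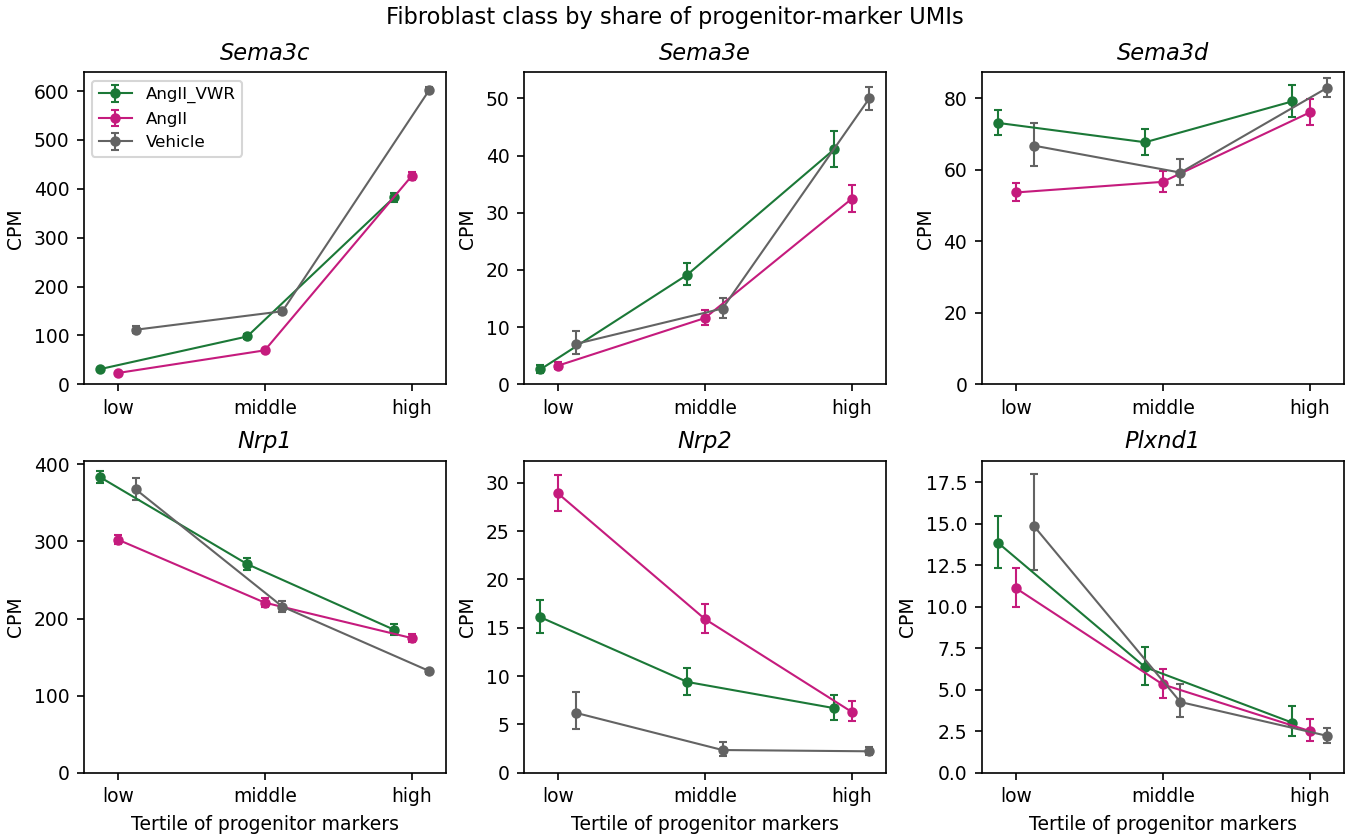
Levels of 6 genes (CPM) in fibroblasts divided into low, middle and high tertiles by the share of UMIs in Pi16, Dpp4, Cd55, Anxa3 and Ackr3, with 1 line per library and exact Poisson 95% intervals. Sema3c and Sema3e were highest in the high tertile of each library (Sema3c 382, 426 and 602 CPM in AngII_VWR, AngII and Vehicle), while Nrp1, Nrp2 and Plxnd1 were highest in the low tertile.

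Levels also varied with the 4 genes of the fibroblast rule. In cells grouped by the share of UMIs in Col1a1, Col1a2, Dcn and Lum, Sema3c was lower the higher the share. Outside the macrophage class it was 548 CPM at 0.5 to 1%, 292 CPM at 1 to 2%, 81.6 CPM at 2 to 4% and 41.8 CPM at 4% or more in AngII_VWR. The same bands gave 620.3, 520.5, 123 and 35.0 CPM in AngII cells, and 829, 705, 183 and 119.5 CPM in Vehicle cells. From 1 to 2% to 4% or more the progenitor markers fell too. They went from 3607 to 1241 CPM in AngII_VWR, 5295 to 1567 CPM in AngII and 8144 to 3013 CPM in Vehicle. The bands are thus not separate from the tertiles. Median depth was 2310, 2404.5 and 2485 UMIs at 0.5 to 1%. At 1 to 2% it was 4653, 10594 and 10403 UMIs, and its part was not tested. Sema3e was at or under 1.93 CPM at 4% or more in each library. Sema3b, a secreted ligand known as a tumour suppressor in human lung, was highest in the band of 4% or more, with 45.8 CPM in AngII_VWR, 64.5 CPM in AngII cells and 137 CPM in Vehicle cells. The first band lies below the fibroblast rule, so cells rich in Sema3c also lay in the rest. Cells of the rest that met no marker gate had 287 CPM of Sema3c in AngII_VWR, 263 CPM in AngII cells and 589 CPM in Vehicle cells, and a median of 0.452, 0.454 and 0.544% of their UMIs in the 4 genes.

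Fibroblasts with a Sema3c UMI also carried more Dpp4 and Cd55, surface proteins of progenitor fibroblasts, and more Limch1, Pla1a and Efhd1. In the library where the ratio was smallest these genes were 6.03, 6.01, 8.13, 5.42 and 4.89 times as high as in fibroblasts without one. Dpp4 and Cd55 are among the genes that set the tertiles, so their values restate the tertile result in the same cells. A UMI of Sema3e was found in 6.73% of Sema3c-positive against 0.957% of Sema3c-negative fibroblasts in AngII_VWR, 5.99 against 0.664% in AngII and 6.59 against 1.40% in Vehicle. Nrp1 was found in 31.0 against 40.6% in AngII_VWR, 28.8 against 34.6% in AngII and 24.8 against 25.6% in Vehicle. The share was lower in cells with the ligand in AngII_VWR and AngII and nearly equal in Vehicle. These are counts of cells within single libraries, the genes were chosen after the values were seen, and they are given without a test.

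Marker triplets, chosen after the data were seen, divided the fibroblasts further. Cells went to a triplet when they had at least 2 of its 3 genes and more of it than of any other, a rule that finds fewer cells at low depth. In the Pi16, Dpp4 and Cd55 set Sema3c reached 552 CPM in AngII_VWR, 785 CPM in AngII cells and 1015 CPM in Vehicle cells. In that set Sema3e stood at 84.6, 70.9 and 78.0 CPM. The set itself took 6.66% of AngII_VWR, 6.86% of AngII and 13.9% of Vehicle fibroblasts. Its genes are among those that set the progenitor tertiles, so it is not separate from them. Sema3b was 44.3, 65.6 and 118 CPM in the Vegfd, Fmod and Angptl7 set. Sema3d, a ligand that guides endothelial cells in the developing pulmonary veins, was 208 CPM (191 to 226) in AngII_VWR, 117 CPM (93.7 to 145) in AngII cells and 285 CPM (216 to 369) in Vehicle cells in the Esm1, Dio2 and Smoc1 set. That set had only 377, 54 and 26 cells, and Nrp1 was 523, 485 and 484 CPM there.

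The remaining ligands differed less between AngII and Vehicle fibroblasts. Sema3b had 28.7 CPM (27.4 to 30.1) in AngII_VWR, 46.0 CPM (44.6 to 47.5) in AngII cells and 61.0 CPM (59.2 to 62.8) in Vehicle cells, and AngII over Vehicle was 0.755 (0.723 to 0.788). It stayed below Vehicle in each progenitor tertile, at 0.773, 0.798 and 0.780 times, but in the high tertile of activation markers (Thbs4, Tnc, Cthrc1, Comp, Postn and Col8a1) it was higher, at 1.16 times (1.02 to 1.32). Sema3d had 72.9 CPM (70.7 to 75.1), 60.9 CPM (59.2 to 62.6) and 75.6 CPM (73.6 to 77.6), and AngII over Vehicle was 0.806 (0.775 to 0.837). With the fibroblast rule at 2% its log2 ratio was 0.07 instead of -0.31. Sema3f, the classical ligand of Nrp2, had 4.11 CPM (3.61 to 4.67), 5.16 CPM (4.68 to 5.68) and 4.75 CPM (4.26 to 5.27), and the interval of AngII over Vehicle, 0.942 to 1.26, held equality. Within the progenitor tertiles Sema3f was 0.710 (0.538 to 0.947), 0.766 (0.594 to 0.989) and 0.953 times Vehicle (0.714 to 1.26), and with these weighted equally its log2 ratio was -0.32 instead of 0.10. Sema3a, the classical ligand of Nrp1, stayed under 5 CPM in each library, at 1.71, 3.34 and 1.505 CPM, and so fell under the measuring limit, with a ratio of AngII over Vehicle of 2.22 (1.77 to 2.80).

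Among the receptors, Nrp1 and Plxnd1 were higher in AngII fibroblasts by less than 2-fold. Nrp1 had 291 CPM (287 to 296) in AngII_VWR, 239.8 CPM (236 to 243) in AngII cells and 176 CPM (173 to 179) in Vehicle cells. For Nrp1, AngII over Vehicle was 1.37 (1.34 to 1.40). Plxnd1, the plexin that binds Sema3e, had 8.38 CPM (7.65 to 9.15), 6.82 CPM (6.26 to 7.40) and 3.98 CPM (3.54 to 4.46), and AngII over Vehicle was 1.71 (1.48 to 1.98). With the progenitor tertiles weighted equally the log2 ratios were -0.04 for Nrp1 and -0.15 for Plxnd1, against 0.45 and 0.65 over the whole class. In the low tertile Nrp1 was lower in AngII than in Vehicle, at 0.822 times (0.788 to 0.858), and in the high tertile it was higher, at 1.32 times (1.27 to 1.38).

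Nrp2 kept its direction in each tertile. AngII over Vehicle was 4.65 (3.45 to 6.42) in the low, 6.75 (4.91 to 9.50) in the middle and 2.83 (2.19 to 3.67) in the high progenitor tertile. The activation markers are genes of matrix-forming fibroblasts. The high tertile of these markers held 36.1% of AngII_VWR, 53.9% of AngII and 9.64% of Vehicle fibroblasts. From low to high, Nrp2 was 8.56, 9.74 and 14.2 CPM in AngII_VWR, 9.42, 12.2 and 22.6 CPM in AngII cells, and 2.50, 3.03 and 2.48 CPM in Vehicle cells. It was thus highest in the high tertile of both libraries that had received angiotensin II and level in Vehicle. In the Cilp, Sfrp1 and Piezo2 set it was 17.0, 23.5 and 2.33 CPM, from 1608, 879 and 175 cells. RNA of other cells also differed in the fibroblast class: erythroid markers summed to 179, 578 and 1493 CPM and smooth muscle markers to 185, 151 and 248 CPM in AngII_VWR, AngII and Vehicle, and their part in these differences was not tested.

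The second comparison set AngII_VWR against AngII in fibroblasts, that is wheel running on top of the hormone. The libraries also differed in Cell Ranger version (7.1.0 against 7.0.1) and in median depth (4590 against 12993 UMIs per fibroblast). Running cannot be told apart from these or from other differences between single libraries. No member differed by 2-fold: 8 were measured and 0 passed in either direction, where 4.26% of all 10588 measured genes did, 2.30% higher and 1.96% lower. It shares the AngII library with the first comparison, so a value low or high in AngII moves both. The nearest to the threshold were Nrp2, at 0.616 times AngII (0.561 to 0.675), and Sema3b, at 0.624 times (0.589 to 0.661). With 5% of free RNA subtracted the log2 ratio of Nrp2 was -1.58 instead of -0.65, past 2-fold. Sema3c was 0.987 (0.960 to 1.01) over the class, but its tertiles differed in direction. It was 1.35 (1.21 to 1.496) in the low, 1.41 (1.32 to 1.501) in the middle and 0.897 (0.869 to 0.927) in the high progenitor tertile. By activation markers it was 0.854 in the low, 0.648 in the middle and 1.29 in the high tertile. Sema3e was 1.32 (1.21 to 1.43), Plxnd1 1.23 (1.09 to 1.39), Nrp1 1.22 (1.19 to 1.24), Sema3d 1.197 (1.15 to 1.25) and Sema3f 0.796 (0.677 to 0.935).

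Sema3b was lower in AngII_VWR than in AngII in each progenitor tertile, at 0.664, 0.562 and 0.652 times from low to high. Nrp2 was lower in the low (0.557) and middle (0.591) tertile and not in the high one (1.06, 0.819 to 1.37). Some smaller ratios turned with the processing: the log2 ratio of Sema3e was -0.30 with the fibroblast rule at 2% against 0.38, and that of Plxnd1 was -0.02 after thinning against 0.26. The median log2 ratio of all measured genes was 0.10, and relative to it Nrp1 was 0.18, Nrp2 -0.75 and Sema3b -0.76. Set against Vehicle, AngII_VWR fibroblasts had 7 measured members, of which 2 passed 2-fold upwards and 2 downwards. Of all measured genes 6.97% passed, 4.42% higher and 2.55% lower. The members were Nrp2 at 4.25 times (3.61 to 5.01), Plxnd1 at 2.10 times (1.82 to 2.44), Sema3b at 0.471 times (0.445 to 0.498) and Sema3c at 0.336 times (0.328 to 0.344). The calls of Plxnd1 and Sema3b lay near the threshold. On the scale of log2(CPM + 1), where 2-fold is a difference of 1, Plxnd1 was 0.91, and 0.11 with the progenitor tertiles weighted equally. Sema3b was -1.06, and -0.87 with the activation tertiles weighted equally. Sema3c was -1.57, and -0.75 with the progenitor tertiles weighted equally.

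**Figure D4:**
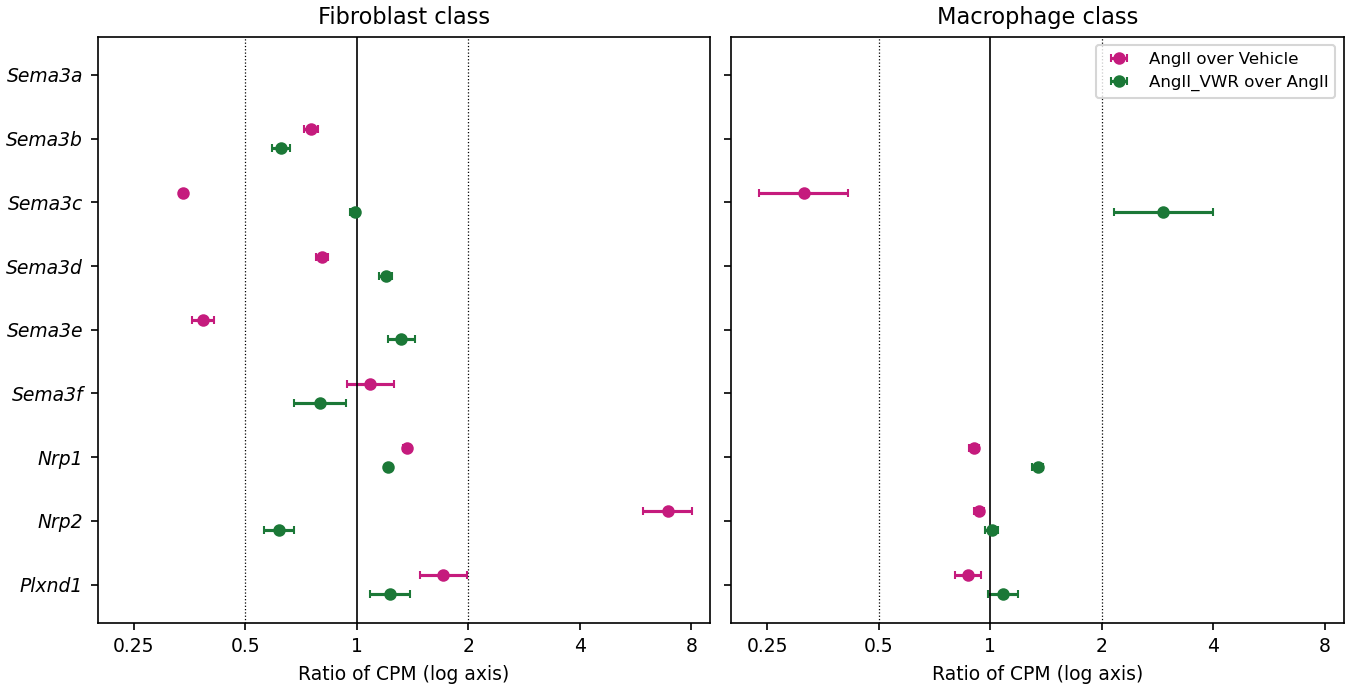
Ratio of CPM (log axis) with exact conditional 95% intervals for each measured gene in the fibroblast and macrophage classes; dotted lines mark 2-fold either way and genes under the measuring limit have no point. In fibroblasts Nrp2 was 6.90-fold higher in AngII than in Vehicle and Sema3c 0.341 times, while all AngII_VWR over AngII ratios in fibroblasts lay between 0.616 and 1.32.

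Macrophages carried all 3 receptors, and none of these differed by 2-fold between libraries. Nrp1 had 331 CPM (323 to 339.9) in AngII_VWR, 246 CPM (241 to 252) in AngII cells and 272 CPM (266 to 278) in Vehicle cells. Nrp2 had 234 CPM (227 to 242), 232 CPM (227 to 238) and 249 CPM (243 to 254), and Plxnd1 40.4 CPM (37.5 to 43.5), 37.3 CPM (35.2 to 39.5) and 42.8 CPM (40.6 to 45.1). Each of these receptors was a little lower in AngII than in Vehicle, at 0.905, 0.933 and 0.871 times. After thinning, Nrp2 was found in 33.3, 29.8 and 30.9% of macrophages and Nrp1 in 40.8, 36.2 and 39.0%. In AngII_VWR over AngII, Nrp1 was 1.35 (1.30 to 1.39), Nrp2 1.01 (0.971 to 1.05) and Plxnd1 1.08 (0.984 to 1.19). The median log2 ratio of all genes in that comparison was 0.17, and relative to it Nrp1 was 0.25.

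Of the 4 members measured in macrophages 1, Sema3c, was at least 2-fold lower in AngII than in Vehicle, where 6.29% of all 9820 measured genes differed by as much, 3.86% higher and 2.43% lower. In AngII_VWR over AngII the same gene was at least 2-fold higher, where 8.39% of 10188 genes differed, 6.18% higher and 2.21% lower. In AngII_VWR over Vehicle 0 of the 4 did, where 8.22% of all did, 6.29% higher and 1.94% lower. The Sema3c level was low, with 6.66 CPM (5.50 to 7.98) in AngII_VWR, 2.27 CPM (1.78 to 2.87) in AngII cells and 7.20 CPM (6.31 to 8.19) in Vehicle cells. Fibroblast RNA in the macrophage class, read from the 6 fibroblast markers, would bring 6.48, 1.81 and 8.04 CPM of Sema3c. The measured levels were 1.03, 1.26 and 0.896 times those amounts. Among these markers are Col1a1, Col1a2, Dcn and Lum, whose share also decided which cells entered each class. The amounts thus depend on the fibroblast rule. The source of the Sema3c RNA was not tested, and no expression by macrophages is claimed. Sema3d and Sema3b in macrophages, at most 3.56 and 2.18 CPM, were likewise between 0.877 and 1.75 times the amount the fibroblast markers carry.

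Outside the 2 large classes, lymphatic endothelial cells, gated on Prox1, Mmrn1, Ccl21a and Reln, had a mixture of ligands and Nrp2. These were 42 cells in AngII_VWR, 34 in AngII and 47 in Vehicle. Sema3a, which takes part in lymphatic valve formation in mice, had 664 CPM (589.9 to 745), 941 CPM (859.6 to 1027) and 469 CPM (428 to 513). Sema3d had 579 CPM (509.9 to 655), 594 CPM (530.3 to 664) and 666 CPM (617 to 717), with intervals that overlapped between all pairs of libraries. Sema3f had 251, 252 and 171 CPM, and Nrp2, known as the neuropilin of lymphatic vessels, had 625, 643 and 459 CPM. Nrp1 was scarce there, with 6, 4 and 3 UMIs in all, and the 4 lymphatic markers summed to 13391, 25932 and 12163 CPM.

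Blood endothelial cells, gated on Pecam1, Cdh5, Cldn5, Egfl7 and Emcn, had the receptors. They numbered 45 in AngII_VWR, 130 in AngII and 19 in Vehicle. Nrp1, the co-receptor of VEGF-A, had 557 CPM (449.9 to 681), 1009 CPM (943 to 1079) and 416 CPM (334 to 513). Nrp2 had 213 CPM (149 to 295), 294 CPM (258 to 332) and 99.3 CPM (61.5 to 152), and Plxnd1 142, 152 and 137 CPM with overlapping intervals. Sema3a had 3 UMIs in AngII_VWR, 1 in AngII and 14 in Vehicle cells, and Sema3d had 4, 4 and 27. Lymphatic markers summed to 35.5, 16.4 and 66.2 CPM and smooth muscle markers to 1409.7, 84.6 and 478 CPM in the same cells, and their part in those ligand counts was not tested.

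**Figure D5:**
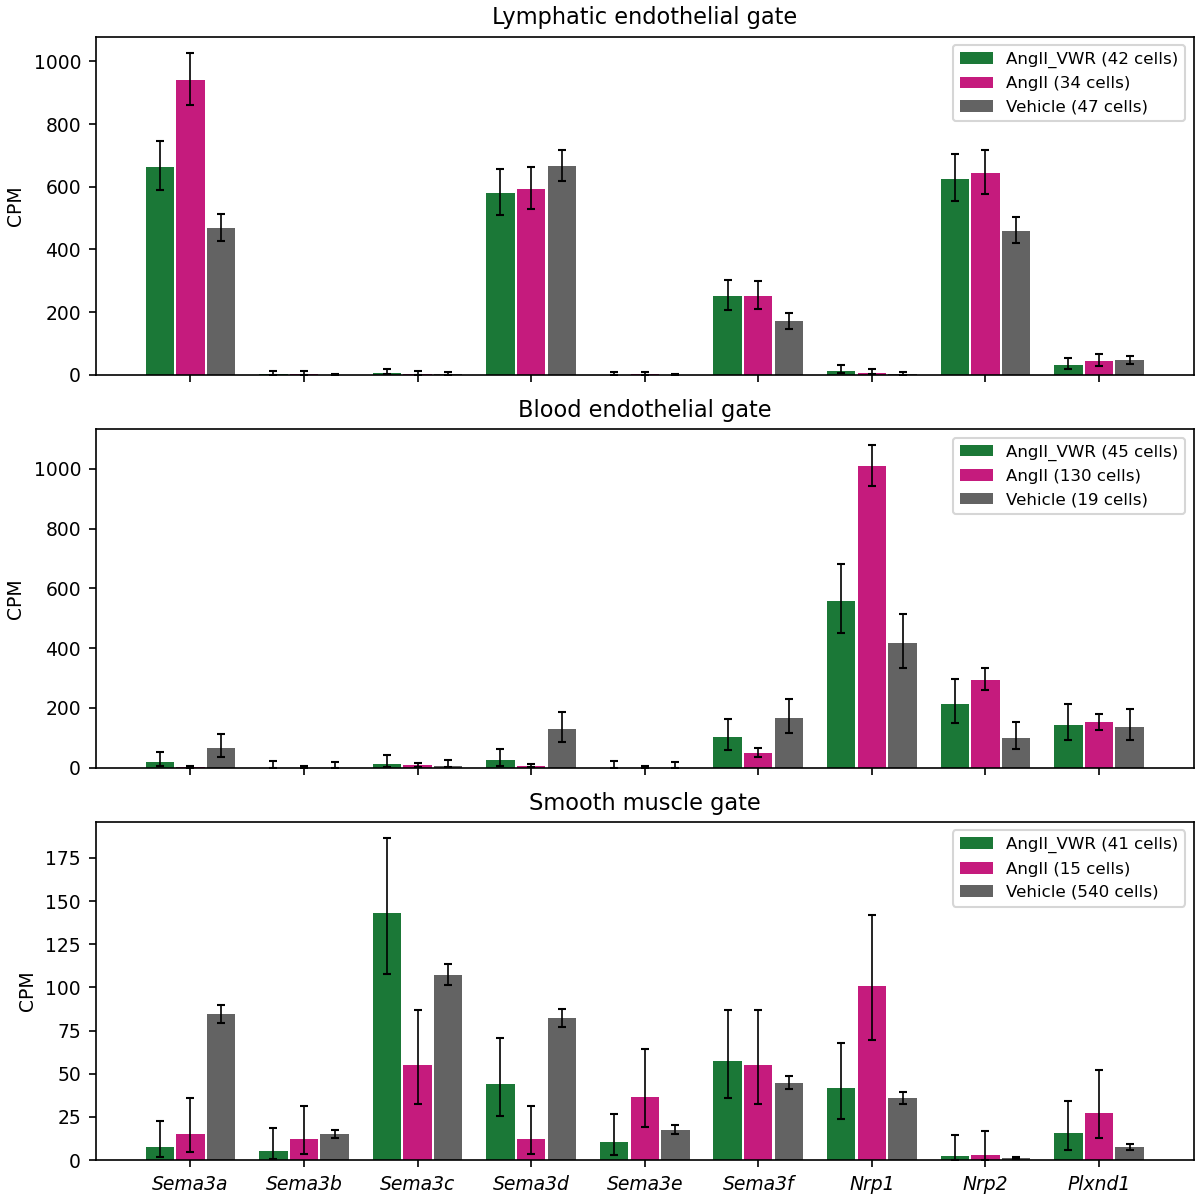
Levels (CPM, linear axis from 0) of the 9 genes in lymphatic endothelial, blood endothelial and smooth muscle cells, with 1 bar per library, exact Poisson 95% intervals and the number of cells in the legend. Sema3a reached 664, 941 and 469 CPM in lymphatic endothelium of AngII_VWR, AngII and Vehicle, and Nrp1 557, 1009 and 416 CPM in blood endothelium.

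Smooth muscle cells had ligands and little Nrp2. Sema3a had 7.81 CPM (1.61 to 22.8) in the 41 AngII_VWR cells, 15.3 CPM (4.97 to 35.7) in the 15 AngII cells and 84.5 CPM (79.3 to 90.1) in the 540 Vehicle cells, from 3, 5 and 960 UMIs. Sema3c had 143 CPM (108 to 186), 55.1 CPM (32.6 to 87.0) and 107 CPM (101 to 113), and Sema3d had 44.3, 12.2 and 82.2 CPM. Sema3f had 57.3, 55.1 and 44.8 CPM, and Nrp2 had 1, 1 and 12 UMIs. Fibroblast markers summed to 4770.0, 3075 and 2694 CPM in these sets, and their part in the Sema3c and Sema3d levels was not tested. Nrp1 was 41.7, 101 and 35.8 CPM. Schwann cells, the glia of peripheral nerves, had Sema3b at 295 CPM (225 to 381) in AngII_VWR cells and 324 CPM (258 to 401) in AngII cells, and Sema3e at 200.2 CPM (143 to 273) and 312 CPM (248 to 388). In the same cells Sema3c was 455 CPM (367 to 559) in AngII_VWR and 247 CPM (190 to 315) in AngII, and Nrp1 200.2 and 254 CPM. The Schwann cells numbered 46 and 24, and Vehicle had 1, which gives no level. The part of fibroblast RNA in these ligand levels was not tested. The rest as a whole is a mixture whose make-up differed between libraries. In AngII, Nrp1 (2.00-fold), Nrp2 (3.30-fold) and Plxnd1 (3.06-fold) passed 2-fold upwards over Vehicle and Sema3c (0.448-fold) downwards, that is 4 of 9 members. Of all 12118 measured genes 21.5% passed, 13.7% higher and 7.72% lower. In AngII_VWR over AngII 0 of the 9 passed, where 8.93% of all genes did, 3.43% higher and 5.50% lower. In AngII_VWR over Vehicle Nrp2 (2.72-fold) and Plxnd1 (2.34-fold) passed upwards, where 18.7% of all genes did, 11.2% higher and 7.52% lower.

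Genes whose levels ran most like those of each member were sought over 16 sets of at least 50 cells (a library by class or gate), by Pearson correlation of log2(CPM + 1). Smooth muscle cells entered from Vehicle alone and blood endothelial cells from AngII alone. No lymphatic endothelial or Schwann set was large enough. Lymphatic endothelial cells, rich in Sema3a, Sema3d, Sema3f and Nrp2, thus had no part in these values. For Sema3c they were Tnxb (0.959), Gpc6 (0.952) and Tiam2 (0.947), and for Sema3d Aebp1 (0.973), Rarres2 (0.972) and Lhfp (0.971). For Sema3a they were Erbb4 (0.968), Igfbp2 (0.955) and Itga7 (0.951). Among these sets Sema3a was high in Vehicle smooth muscle and at most 3.34 CPM in fibroblasts, so its values lean on that smooth muscle set. For Sema3b they were Col6a6 (0.935), Epha3 (0.933) and Col6a2 (0.928), and for Sema3e B830012L14Rik (0.960), Bmpr1b (0.923) and Col4a6 (0.918). Sema3f ran with Lama5 (0.934), Id1 (0.931) and Tm4sf1 (0.912). Among the receptors, Nrp1 ran with Sec14l1 (0.922), Sema6d (0.906) and Gbp7 (0.866), Nrp2 with Parvb (0.944), 4732471J01Rik (0.906) and Tmem88 (0.891), and Plxnd1 with Lpar6 (0.951), Pparg (0.897) and Pdgfb (0.861). The points share libraries and depth, and the values are a description.

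Other semaphorins (Sema3g among them), plexins and their partners and effectors, 44 genes in all, were followed in the same classes. In fibroblasts 24 were measured in AngII against Vehicle, of which 4 passed 2-fold upwards and 1 downwards, where 3.47% of all measured genes passed upwards and 2.02% downwards. The median log2 ratio was 0.01, against -0.07 for all genes. Rnd1, a small GTPase that binds plexin A1 and lets it respond to semaphorins, had 95.7 CPM in AngII against 8.52 CPM in Vehicle, 11.2-fold higher (10.3 to 12.2). Plxna4, an A-type plexin that works with neuropilins, had 71.1 against 24.3 CPM, and Plxna2 49.98 against 23.3 CPM. Flt1, a VEGF receptor, was the other gene past 2-fold upwards (12.2 against 5.95 CPM), and Vegfa was lower at 13.4 against 33.2 CPM. Among the genes under 2-fold, Rnd3 had 50.9 CPM in AngII against 85.6 CPM in Vehicle.

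In AngII_VWR against AngII fibroblasts, 26 were measured, with 2 higher and 1 lower, where 2.30% of all measured genes were higher and 1.96% lower by 2-fold. The median was 0.37, against 0.10 for all genes. Rnd1 was the lower one, with 5.40 CPM in AngII_VWR against 95.7 CPM in AngII, 17.7 times lower. Sema4a (13.4 against 3.40 CPM) and Flt1 (28.0 against 12.2 CPM) were higher, and Mical2, an enzyme that oxidises actin, had 163 against 82.5 CPM. In macrophages 20 were measured in AngII against Vehicle, with 2 higher and 1 lower, where 3.86% of all measured genes were higher and 2.43% lower, and the median was -0.07 against -0.01. Sema4d, a membrane semaphorin of immune cells, had 33.5 against 4.41 CPM, Vegfa 15.8 against 0.889 CPM and Sema6a 30.6 against 94.2 CPM. In AngII_VWR against AngII macrophages 22 were measured, and Sema6b (10.5 against 5.15 CPM) and Mical3 (6.25 against 3.04 CPM) were the 2 past 2-fold, both higher, where 6.18% of all measured genes were higher and 2.21% lower. The median was 0.05 against 0.17.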

How the data were processed

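Per the labels' protocols, adventitia was peeled from the aorta, digested with enzymes and sequenced as 3′ libraries on the 10x platform. The deposited matrices hold raw counts of UMIs per gene and barcode, made by Cell Ranger 7.1.0 for AngII_VWR and by 7.0.1 for the other 2 libraries, per the file headers. The build was mm10 per the submitters' processing notes, and whether intronic reads were counted is not given in the sources used here. A barcode was kept with 300 or more genes, 500 or more UMIs and no more than 10% of them mitochondrial. The highest Scrublet scores (scanpy 1.11.5) were removed at 0.8% per 1000 cells, which took 2894 barcodes in AngII_VWR, 784 in AngII and 1537 in Vehicle. Scrublet's own threshold marked 0, 160 and 282, so it did not work in AngII_VWR. Total UMIs were 105679209 in AngII_VWR, 141570158 in AngII and 165977330 in Vehicle. Within a class and library, UMIs were added up and scaled to CPM, and log2 ratios used CPM + 1. Intervals were exact at 95% (Poisson, conditional for ratios, Clopper-Pearson for shares), and calculations used Python 3.11.15 and scipy 1.17.1. No test was possible with 1 library per group. A gate in the rest needed at least 2 markers detected and a minimum share of UMIs, 0.2% for blood endothelial and Schwann, 0.1% for lymphatic endothelial and 1% for smooth muscle cells. The calculation of ratios was tested on simulated data. All 9 members were described; of the pathway list, up to 4 genes per class and comparison with the largest ratio and at least 50 CPM were named, and others past 2-fold were named after their values were seen. The members, marker lists and pathway list were chosen with earlier results of these data known.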

Additional observations from a re-analysis of the deposited data

Results flagged for a closer look

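In AngII over Vehicle the receptors ran in opposite directions in the 2 classes, with 1 library per group, so the difference between the classes was not tested. Nrp2 was 6.90-fold in fibroblasts and 0.933-fold in macrophages, Plxnd1 1.71-fold and 0.871-fold, and Nrp1 1.37-fold and 0.905-fold. In fibroblasts Nrp1 and Plxnd1 did not keep that direction when progenitor tertiles were weighted equally, as given above. In macrophages the log2 ratio of Nrp2 was 0.008 with every cell thinned to 2000 UMIs, against -0.10, and it kept its sign in 12 of 14 alternatives. Nrp1 and Plxnd1 in macrophages kept theirs in 14 of 14.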

How the results depend on the processing

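No paired analysis was possible because each group is 1 library and no difference was tested, and no replicate could be left out. The count of fibroblast members past 2-fold in AngII over Vehicle was 3, and 1 (Nrp2) with progenitor tertiles weighted equally. In AngII_VWR over AngII it was 0, and 1 (Nrp2) with 5% free RNA subtracted. In AngII_VWR over Vehicle it was 4, and 2 with activation tertiles weighted equally (Sema3c and Nrp2), with progenitor tertiles weighted equally (Sema3b and Nrp2) or with a pseudocount of 5 CPM (Sema3c and Nrp2). In macrophages the count in AngII over Vehicle was 1 (Sema3c), 0 with 5% free RNA subtracted or a pseudocount of 5 CPM, 2 with no doublet removal and 4 with no filter on low values. In AngII_VWR over AngII it was 1, 0 with free RNA subtracted, with a mean over cells of CPM or with a pseudocount of 5 CPM, 2 with no doublet removal and 5 with no filter. Of the log2 ratios called, Sema3e in fibroblasts, AngII over Vehicle, reversed to 0.14 with the fibroblast rule at 2%. Sema3c kept its sign in 16 of 16 alternatives, between -1.59 and -0.73, and Nrp2 likewise, between 1.61 and 3.29. A fibroblast rule of 0.5% and activation tertiles weighted equally were added after seeing the data. Depth limits AngII_VWR most, at a median of 4590 UMIs per fibroblast, and the gated vascular sets, of which the smallest held 15 cells.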
